A study of Mus musculus with 27 samples.

Results

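Activated, disease-associated microglia (DAM) are resident immune cells of nervous tissue that have left their surveying state. The 10 genes Trem2, Tyrobp, Clec7a, Axl, Itgax, Spp1, Lgals3, Lpl, Gpnmb and Cst7 are commonly used to describe them. They were taken by symbol, and all 10 were found among the 40129 genes of the mouse retina table. In such cells the receptor Trem2 binds lipids and cell debris and signals through its adaptor Tyrobp. Genes for phagocytosis, lipid handling and lysosomes are then switched on, while genes of the surveying (homeostatic) state, such as P2ry12 and Tmem119, are lowered. In the oxygen-induced retinopathy (OIR) model, microglia and macrophages are known to gather around vascular tufts.

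All mice were labelled C57BL/6 with a wildtype (WT) genotype, and per the study's methods the dams were C57BL/6J. OIR pups had been kept in hyperoxia, which obliterates central retinal vessels, were returned to room air and were sacrificed at postnatal day 14 (p14, the hypoxic phase) or 17 (p17, the phase of retinal neovascularization). Control pups (nOIR) stayed in room air until the same ages. Whole-retina RNA was compared in 6 nOIR mice and 6 OIR mice at p14 and in 6 nOIR mice and 8 OIR mice at p17, and nOIR p14 mouse S4 was left out. The authors also left it out. A sample held 1 or both retinas of a mouse. The mice of each group came from more than 1 litter, in each group fewer litters than mice. Per the study's methods the nOIR p17 mice came from the fewest litters. Which mice shared a litter is not given in the sources used here. Recovered read totals ranged from 17029536 (OIR p17 mouse S1) to 33593428 per mouse. Fewer cells of a type and less RNA per cell cannot be told apart in such bulk samples. Among the homeostatic microglia markers, Cx3cr1 (354 normalized reads on average in nOIR p14 mice), P2ry12 (221) and 11 others were detected, and no marker of this 13-gene list was at 0 in all mice of a group. A fold change (log2FC) is the difference of group means of log2(normalized reads + 1), and a gene was called at an adjusted p under 0.05 (limma, adjusted over the 27137 genes tested). All 10 genes passed the filter of a mean of 1 normalized read over the 26 mice.

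The promoters of 8 of the 10 genes were in the RefSeq table of the GRCm38.p6 build, and those of Tyrobp and Lpl were not used here. These 8 genes had 10 promoter windows, and the counts below are of genes, whereas the shares are of windows. The AP-1 letters TGANTCA were found in 4 of the 8 (Trem2, Itgax, Cst7 and Gpnmb), compared with 7.81% of the 32851 promoter windows of the table. The letters GAGGAAG of the myeloid factor PU.1 were found in 3 (Trem2, Axl and Spp1), compared with 13.6% of windows. Neither the E-box CACGTG (7.15% of windows) nor the hypoxia response letters ACGTG (19.6%), which the E-box contains, were found in any of the 8. Both strands of each window, from 250 bases before to 50 after the start site, were searched. The 4 promoters with AP-1 letters are shown because they join a receptor, an integrin and 2 lysosomal genes whose reads are given below. Each run reads 5′ to 3′ on the plus strand, which is the strand of the gene, and ends 30 bases after the start site. Capitals mark the AP-1 letters and, in Trem2, also the PU.1 letters, which lie there on the opposite strand. A match is a description of the letters, and binding was not measured.
Trem2 chr17:48346151-48346430: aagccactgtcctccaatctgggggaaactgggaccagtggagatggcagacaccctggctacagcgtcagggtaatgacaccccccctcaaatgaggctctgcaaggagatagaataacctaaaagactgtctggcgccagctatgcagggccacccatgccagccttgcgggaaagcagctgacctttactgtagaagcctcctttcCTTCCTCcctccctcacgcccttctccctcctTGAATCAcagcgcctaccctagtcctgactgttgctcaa
Itgax chr7:128129300-128129579: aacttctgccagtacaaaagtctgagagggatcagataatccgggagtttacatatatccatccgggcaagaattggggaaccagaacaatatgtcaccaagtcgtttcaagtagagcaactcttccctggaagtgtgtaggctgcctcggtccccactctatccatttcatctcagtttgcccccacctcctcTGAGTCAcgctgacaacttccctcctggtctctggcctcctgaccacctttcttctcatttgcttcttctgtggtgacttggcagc
Cst7 chr2:150570165-150570444: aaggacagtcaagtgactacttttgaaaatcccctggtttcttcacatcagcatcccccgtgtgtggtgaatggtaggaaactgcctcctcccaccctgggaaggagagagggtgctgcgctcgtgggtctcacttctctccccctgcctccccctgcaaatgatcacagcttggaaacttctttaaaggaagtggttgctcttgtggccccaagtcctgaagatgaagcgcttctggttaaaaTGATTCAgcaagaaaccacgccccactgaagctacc
Gpnmb chr6:49036268-49036547: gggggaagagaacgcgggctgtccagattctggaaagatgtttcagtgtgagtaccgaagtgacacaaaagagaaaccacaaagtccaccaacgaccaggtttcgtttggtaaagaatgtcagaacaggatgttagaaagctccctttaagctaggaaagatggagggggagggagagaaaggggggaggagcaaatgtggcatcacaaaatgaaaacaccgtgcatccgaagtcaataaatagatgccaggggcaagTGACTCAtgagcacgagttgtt

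At p17, 7 of the 10 genes were higher in OIR than in nOIR retinas and none was lower, compared with 7.39% of all genes tested that were called higher. These were Trem2, Tyrobp, Clec7a, Axl, Itgax, Lgals3 and Cst7, while Gpnmb, Spp1 and Lpl did not pass the test. In 6 of these genes (all but Itgax) each OIR p17 mouse lay above each nOIR p17 mouse, which held in that direction for 3.9% of all genes. At p14, 5 of the 10 were called higher (Trem2, Clec7a, Axl, Lgals3 and Cst7) and none lower, compared with 3.18% of all genes. Groups did not overlap at p14 in Lgals3 and Cst7, compared with 1.91% of all genes in that direction. With the study's threshold of a log2FC above 2 applied to the limma calls, Clec7a and Lgals3 were upregulated DEG at p14 (0.744% of all genes), and Clec7a, Lgals3, Cst7, Itgax and Tyrobp at p17 (1.9%). Tyrobp passed narrowly, with a log2FC of 2.0034. With 1 mouse left out, the p17 log2FC ranged from 1.86 to 2.14 for Tyrobp and from 1.86 to 2.40 for Cst7. The median log2FC of the 10 genes was 0.79 at p14 and 1.84 at p17, beside a median over all genes of 0.02 and -0.02. Clec7a and Lgals3 were called at p14 in every alternative and with any mouse left out. Without nOIR p14 mouse S7 only these 2 were called at p14, and without nOIR p14 mouse S1 they were called together with Axl.

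**Figure D1:**
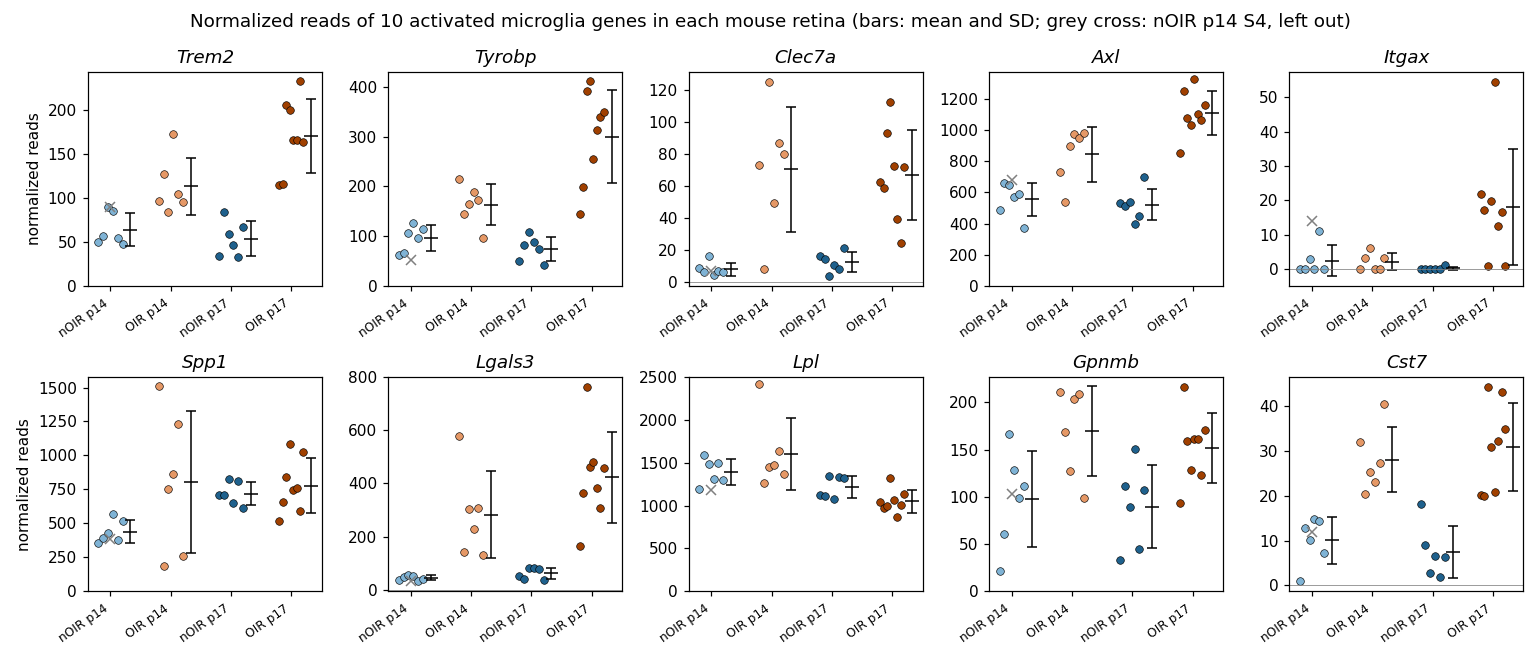
Normalized reads (vertical axes, linear, each gene on its own scale) of the 10 genes in each mouse, by group on the horizontal axes, with the mean and SD beside the points and a grey cross for the nOIR p14 mouse that was left out. Lgals3 and Cst7 show OIR mice above the controls at both ages, whereas Spp1 splits the OIR p14 mice and Itgax is at most 11.2 in the compared mice outside OIR p17.

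**Figure D2:**
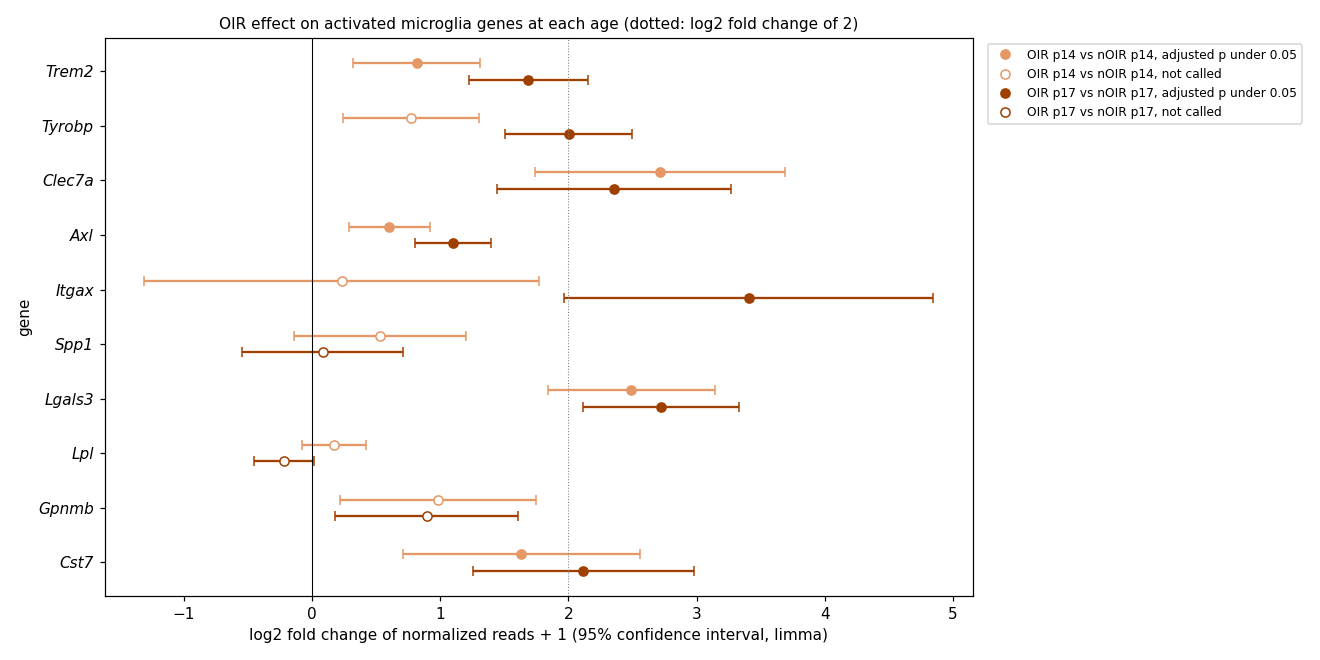
Log2FC of OIR against nOIR mice (horizontal axis, with 95% confidence intervals from limma) for each gene (vertical axis) at p14 and p17, filled where the gene was called. At p17, 7 genes are filled, and the intervals of Spp1 and Lpl include 0 at both ages.

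Among the receptors, Trem2 ranged from 48.1 to 90.0 normalized reads (median 55.8) in nOIR p14 mice and from 83.7 to 173 normalized reads (median 101) in OIR p14 mice. At p17 it ranged from 32.5 to 83.9 normalized reads (median 52.9) in nOIR p17 mice and from 115 to 233 normalized reads (median 166) in OIR p17 mice. Only OIR p14 mouse S3 lay within the control range at p14, and the groups were apart at p17. The log2FC was 0.82 ± 0.24 (SE), adjusted p = 0.0403 at p14, a call that was lost in 8 of 13 alternatives (adjusted p up to 0.104) and in 7 of the 26 fits that left out 1 mouse (up to 0.118). At p17 it was 1.69 ± 0.23 (SE), adjusted p = 2.22e-06, a 3.17-fold ratio of means (two-sided exact permutation p = 0.000333, which is the lower limit for 8 against 6 mice). Tyrobp, the adaptor through which Trem2 signals, ranged from 63.0 to 127 normalized reads (median 102) in nOIR p14 mice and from 96.4 to 215 normalized reads (median 169) in OIR p14 mice. At p17 the same gene ranged from 42.5 to 108 normalized reads (median 77.9) in nOIR p17 mice and from 145 to 412 normalized reads (median 327) in OIR p17 mice. All 8 OIR p17 mice therefore lay above the highest nOIR p17 mouse, while at p14 mouse S6 lay among the controls and the other 5 OIR mice above all of them. The p14 difference of Tyrobp was not called (0.77, adjusted p = 0.079), although DESeq2 on the recovered reads and the fit with mouse S4 called it, and the p17 difference was 2.00 ± 0.24 (SE), adjusted p = 3.64e-07.

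Of 5 genes that act with Trem2 and Tyrobp, 1 was called higher at p14 and 2 at p17. Of all genes, 3.18% were called higher at p14 and 7.39% at p17. Hcst, the adaptor DAP10 related to Tyrobp, had a log2FC of 1.52, adjusted p = 0.0149 at p14 (0.0513 without nOIR p14 mouse S6), and at p17 it was not called (0.96, adjusted p = 0.0862). Inpp5d, a phosphatase that restrains this signaling, rose at p17 (0.93, adjusted p = 0.00419), as did the kinase subunit Pik3cd (0.97, adjusted p = 7.82e-06). Syk, the kinase recruited by Tyrobp, and Plcg2, a phospholipase below it, had p17 values of 1.35 (adjusted p = 0.0869) and 0.86 (adjusted p = 0.118) and were not called at either age.

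Clec7a encodes dectin-1, a receptor for beta-glucans. Its reads ranged from 4.38 to 16.2 normalized reads (median 6.76) in nOIR p14 mice and from 8.59 to 125 normalized reads (median 76.4) in OIR p14 mice. In OIR p14 mouse S2 only 8.59 normalized reads of Clec7a were found, within the range of the controls, and the other 5 OIR p14 mice held 49.7 or more. At p17 Clec7a ranged from 3.84 to 21.2 normalized reads (median 12.9) in nOIR p17 mice and from 24.7 to 112 normalized reads (median 66.9) in OIR p17 mice, so the groups were apart. Its log2FC was 2.72 ± 0.48 (SE), adjusted p = 0.000373 at p14 and 2.35 ± 0.45 (SE), adjusted p = 0.000313 at p17, which makes it the largest of the 10 at p14. Of Card9, Bcl10 and Malt1, which relay dectin-1 signals, none was called at p14 and Bcl10 was called higher at p17 (0.30, adjusted p = 0.049), a call that was lost in 20 of the 26 fits without 1 mouse.

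Axl is a receptor tyrosine kinase that takes up dying cells through the bridging ligands Gas6 and Pros1, and it is also expressed by vascular cells. It ranged from 373 to 660.1 normalized reads (median 579.9) in nOIR p14 mice and from 538 to 981 normalized reads (median 923) in OIR p14 mice. At p17 it ranged from 399 to 696 normalized reads (median 525) in nOIR p17 mice and from 854 to 1324 normalized reads (median 1089) in OIR p17 mice. At p14 the OIR mouse S2 lay inside the control range, and at p17 no mouse did. The log2FC was 0.60 ± 0.15 (SE), adjusted p = 0.0142 at p14 and 1.10 ± 0.14 (SE), adjusted p = 1.38e-06 at p17, the smallest effect among the called genes at each age. Pros1 was higher in OIR retinas at both ages (log2FC 1.53, adjusted p = 0.000406 at p14 and 1.36, adjusted p = 0.000243 at p17). Gas6 was lower at p14 (-0.37, adjusted p = 0.0123) and not called at p17 (-0.14, adjusted p = 0.381). The sister receptors Mertk and Tyro3 were not called at either age. Of 5 endothelial markers, 4 were higher in OIR p17 mice (Pecam1, Cdh5, Cldn5 and Tie1), compared with 7.39% of all genes. At p14 Pecam1 was higher and Cldn5 lower, compared with 3.18% and 2.91% of all genes. The summed level ranged from 6118 to 8113 normalized reads in nOIR p17 and from 8486 to 11741 in OIR p17 mice. The part of vascular cells in the Axl values was not tested.

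Itgax encodes the integrin CD11c of activated microglia and dendritic cells, and it was the least abundant of the 10. The table lists it at 0 in 5 of 6 nOIR p17 mice and at 1.06 normalized reads, a single recovered read, in mouse S6. The 8 OIR p17 mice ranged from 0.895 to 54.5 normalized reads with a median of 16.9, and mice S3 and S8 had 1 read each. Thus 6 of 8 OIR p17 mice stood above all controls and the other 2 overlapped with 1 control. In all, 148 reads were recovered in the OIR p17 group and 1 in the nOIR p17 group, a ratio of 106 after adjustment for the size factors (95% exact interval 18.7 to 4218, counting error only). The log2FC of 3.41 ± 0.71 (SE), adjusted p = 0.000874 at p17 depends on the pseudocount, since with 0.1 in place of 1 it was 6.04 (adjusted p = 0.00128). At p14 only 13 reads in 3 of 6 OIR mice and 14 reads in 2 of 6 nOIR mice were found, and no difference was detectable at this depth (0.23, adjusted p = 0.938). Its partner subunit Itgb2 was called higher at both ages (1.44, adjusted p = 0.0231 at p14 and 2.15, adjusted p = 7.8e-05 at p17), and its p14 call was lost in 3 of the 26 fits that left out 1 mouse.

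Among the genes of secreted proteins, Lgals3 encodes galectin-3, a lectin released by activated microglia and macrophages. It ranged from 32.6 to 55.6 normalized reads (median 45.1) in nOIR p14 mice and from 129 to 577 normalized reads (median 266) in OIR p14 mice. At p17 it ranged from 37.2 to 82.6 normalized reads (median 62.8) in nOIR p17 mice and from 163 to 764 normalized reads (median 421) in OIR p17 mice. Each OIR mouse had more Lgals3 reads than each control of its age, by 6.40-fold on average at p14 and 6.88-fold at p17. The log2FC was 2.49 ± 0.32 (SE), adjusted p = 3.98e-06 at p14 and 2.72 ± 0.30 (SE), adjusted p = 6.2e-08 at p17, and the exact permutation p was the smallest that the group sizes allow at each age (two-sided, p = 0.00216 and 0.000333). Lgals3bp, a glycoprotein that binds galectin-3, was also higher at both ages (0.80, adjusted p = 0.00723 at p14 and 1.17, adjusted p = 1.35e-05 at p17).

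Spp1 encodes osteopontin, an extracellular ligand of integrins and Cd44 that retinal ganglion cells also make. Control values ranged from 353 to 568.4 normalized reads (median 409) in nOIR p14 mice and from 616 to 828.7 normalized reads (median 708) in nOIR p17 mice, so the older controls all lay above the younger ones. The OIR p14 mice had 1510.4, 188, 753, 865, 1234 and 259 normalized reads in mice S1 to S6. Of these, 4 lay above all nOIR p14 mice and 2 (S2 and S6) below all of them, and the SD was 523 in OIR p14 mice against 84.9 in their controls. The OIR p17 values ranged from 515 to 1086 (median 755) and spanned the whole nOIR p17 range. Spp1 was not called at p14 (0.53, adjusted p = 0.46, 95% confidence interval -0.15 to 1.20) or at p17 (0.08, adjusted p = 0.922, interval -0.55 to 0.71). Of 6 genes for its receptors, 3 were higher in OIR retinas at each age, compared with 3.18% of all genes (p14) and 7.39% (p17). These were Cd44 (1.09 at p14 and 1.29 at p17), Itgb1 (0.39 and 1.11) and Itgb3 (2.15 and 2.14), with adjusted p between 3.01e-09 and 0.0298. The p14 calls of Itgb1 and Itgb3 were lost in 8 and 5 of the 26 fits that left out 1 mouse. Itgav, Itgb5 and Itga9 were not called at either age. Of all genes tested, 2.91% were called lower at p14 and 5.12% at p17. Of 6 ganglion cell markers, 2 were lower at p14 (Slc17a6 and Nefl) and 4 at p17 (these, Pou4f2 and Thy1). Their summed level ranged from 20969 to 27690 normalized reads in controls and from 17773 to 20456 in OIR mice at p14, and from 25968 to 32159 and from 18787 to 27684 at p17, with none at 0. Their part in the Spp1 values was not tested.

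Lpl encodes lipoprotein lipase, which frees fatty acids from lipoproteins. It ranged from 1194 to 1589 normalized reads (median 1397) in nOIR p14 mice and from 1267 to 2423 normalized reads (median 1459) in OIR p14 mice, the highest value being that of mouse S1. At p17 the range was 1076 to 1348 normalized reads (median 1222) in nOIR p17 mice and 866 to 1320 normalized reads (median 1019.5) in OIR p17 mice. The groups overlapped at both ages, and neither difference was called (0.17, adjusted p = 0.538 at p14 and -0.22, adjusted p = 0.25 at p17). At p17, however, 6 of the 8 OIR mice lay below all nOIR mice. The two-sided exact permutation p, unadjusted, was 0.307 at p14 and 0.0333 at p17. Lpl was the only one of the 10 with a negative log2FC in OIR mice at p17. Of 3 tested genes that serve lipoprotein lipase, Gpihbp1, its anchor on the capillary wall, rose at p17 (3.50, adjusted p = 5.77e-06), and so did the inhibitor Angptl4 (0.78, adjusted p = 0.00912), whereas the maturation factor Lmf1 was not called at either age. Of all genes, 7.39% were called higher at p17. The activator Apoc2 was not analysed here.

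Of the lysosomal genes, Cst7 encodes cystatin F, an inhibitor of cysteine cathepsins. It ranged from 0.888 to 14.9 normalized reads (median 11.5) in nOIR p14 mice and from 20.4 to 40.4 normalized reads (median 26.2) in OIR p14 mice. At p17 it ranged from 1.86 to 18.0 normalized reads (median 6.50) in nOIR p17 mice and from 20.0 to 44.2 normalized reads (median 31.5) in OIR p17 mice. The groups were apart at both ages, with a log2FC of 1.63 ± 0.45 (SE), adjusted p = 0.0258 at p14 and 2.12 ± 0.42 (SE), adjusted p = 0.000575 at p17. The p14 call was lost in 5 of 13 alternatives (adjusted p up to 0.0646) and in 4 of the 26 fits that left out 1 mouse (up to 0.0705). Its target cathepsin gene Ctsc was higher at both ages (1.07, adjusted p = 4.42e-05 at p14 and 1.54, adjusted p = 7.21e-09 at p17), and Ctsh and Ctss were called at p17 only, with a log2FC of 0.43 (adjusted p = 0.0471) and 1.13 (adjusted p = 8.29e-06). Whether the effects on Ctsh and Ctss differed between the ages was tested as a contrast of the same fit, with an adjusted p of 0.872 and 0.0653. The p17 call of Ctsh was lost in 16 of these 26 fits.

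Gpnmb encodes a glycoprotein of lysosomes and melanosomes that pigment cells also carry. It ranged from 21.3 to 167 normalized reads (median 105) in nOIR p14 mice and from 98.8 to 211 normalized reads (median 186) in OIR p14 mice. At p17 it ranged from 33.3 to 151 normalized reads (median 98.3) in nOIR p17 mice and from 93.3 to 216 normalized reads (median 160.2) in OIR p17 mice. Group means were 1.74-fold and 1.70-fold higher in OIR mice, but the groups overlapped at both ages and no difference was called (0.98, adjusted p = 0.136 at p14 and 0.89, adjusted p = 0.098 at p17). The 95% confidence intervals of the log2FC were 0.22 to 1.75 and 0.18 to 1.61. The two-sided exact permutation p, unadjusted, was 0.0368 at p14 and 0.0113 at p17. None of 6 pigment cell markers was called at either age. Their summed level ranged from 707 to 2175 normalized reads in controls and from 1179 to 2029 in OIR mice at p14, and from 407 to 2109.5 and from 608 to 1617 at p17, with none at 0 in all mice of a group. Their part in the Gpnmb values was not tested. Among the transcription factors Mitf, Tfec, Tfeb and Tfe3, which act on lysosomal genes, only Tfec was called, at p17 (2.44, adjusted p = 0.00718). Tfec was at 0 in all nOIR p17 mice, so the size of its log2FC depends on the pseudocount.

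Per kilobase of exon, Spp1 had the highest mean of the 10 in each group, from 266 normalized reads per kilobase in nOIR p14 to 486 in OIR p14 mice. In OIR p17 mice it was 472, followed by Tyrobp at 450.4, Lgals3 at 228 and Axl at 220.2. Itgax was the lowest in each group and reached 3.75 in OIR p17 mice. These levels were not tested between genes.

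Within the OIR mice, 3 of the 10 genes differed between p17 and p14. Tyrobp (0.84, adjusted p = 0.0331) and Itgax (2.41, adjusted p = 0.0361) were higher at p17, compared with 4.11% of all genes, and Lpl was lower (-0.59, adjusted p = 0.00116), compared with 1.81%. Trem2 (0.59) and Axl (0.41) were not called, with a two-sided exact permutation p, unadjusted, of 0.0157 and 0.00633. In Axl, 7 of 8 OIR p17 mice lay above all OIR p14 mice. The Itgax call was lost in 7 of 11 alternatives (adjusted p up to 0.0915), edgeR and DESeq2 among them, and in 9 of the 26 fits that left out 1 mouse. The Tyrobp call was lost in 5 of 12, among them the replicate block (0.0563) and quantile normalization (0.0708), and in 8 of these fits. Without OIR p17 mouse S4, S6 or S7 only Lpl was called. In the nOIR mice none of the 10 was called between the ages by limma, edgeR or DESeq2, but DESeq2 gave Itgax no adjusted p. By limma, 0.317% of all genes were called. The unadjusted p was under 0.05 in limma for 1 gene, Spp1, compared with 7.37% of all genes. All 6 nOIR p17 mice nevertheless had more Spp1 reads than all 6 nOIR p14 mice, which held in that direction for 0.814% of all genes. Its log2FC of 0.72, adjusted p = 0.636 in the fit of all groups became a call when the nOIR mice were fitted alone (adjusted p = 0.00815), and the exact permutation p was 0.00216 (two-sided, the smallest possible).

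Whether the OIR effect itself was larger at p17 than at p14 was tested as the difference of both effects. None of the 10 genes was called by limma, compared with 1.58% of all genes in either direction. In 5 genes the unadjusted p was under 0.05, compared with 10.7% of all genes. Of these, Trem2, Tyrobp, Axl and Itgax had a positive difference and Lpl a negative one (-0.39). Tyrobp came closest, with a difference of log2FC of 1.23 ± 0.35 (SE), adjusted p = 0.0814. edgeR on the recovered reads called none and DESeq2 called 2, Itgax (6.27, adjusted p = 0.0197) and Tyrobp (1.25, adjusted p = 0.0138). Without nOIR p17 mouse S3 or OIR p17 mouse S1, limma called Tyrobp as well. Trem2 had a difference of 0.87 (adjusted p = 0.277), Clec7a of -0.36 (adjusted p = 0.9) and Lgals3 of 0.23 (adjusted p = 0.905).

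Of 24 further genes of the DAM signature, 8 were higher and 1 lower at p14, and 14 were higher and 1 lower at p17, with a median log2FC of 0.38 and 0.86. Of all genes tested, 3.18% were called higher and 2.91% lower at p14, and 7.39% and 5.12% at p17. The largest at p17 was Ch25h, a cholesterol 25-hydroxylase (4.50, adjusted p = 1.55e-08). Ch25h was at 0 in 5 of 6 nOIR p17 mice, so the size of its log2FC depends on the pseudocount. The lowest log2FC was that of Igf1, an insulin-like growth factor (-0.36, adjusted p = 0.00693). Apoe, a lipid carrier that Müller glia also make in quantity, was lower at p14 (-0.62, adjusted p = 0.00611) and not called at p17 (0.11, adjusted p = 0.71). Of all 30 tested partner genes of the 10, 8 were higher and 1 lower at p14, and 15 were higher and none lower at p17, beside the same shares of all genes.

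Genes of the surveying state were called in part, and the counts here are to be read against all genes tested. Of all genes, 3.18% were called higher and 2.91% lower at p14, and 7.39% and 5.12% at p17. Of 13 homeostatic microglia genes, 1 was lower at p14, namely Selplg (-0.89, adjusted p = 0.00699), and none was higher. At p17, 4 were higher, among them Cx3cr1, Csf1r and Fcrls, and none was lower, from Slc2a5 (-1.26, adjusted p = 0.149) to Fcrls (2.98, adjusted p = 1.08e-08). Between the ages of nOIR mice, 1 of the 13 was called lower at p17 (0.158% of all genes) and 0 higher, while 4 had a log2FC above 0. Mean Fcrls was 127 normalized reads in nOIR p14 and 50.7 in nOIR p17 mice, and mean Cx3cr1 was 354 and 218. P2ry12, a purinergic receptor, had a log2FC of -0.79, adjusted p = 0.0636 at p14 and 0.03, adjusted p = 0.971 at p17, and Tmem119 of -0.18, adjusted p = 0.845 and 0.71, adjusted p = 0.0896. Of 9 pan-myeloid genes, which microglia share with other myeloid cells, 2 were higher and 1 lower at p14, and 8 were higher and none lower at p17. All 3 calls at p14 (Cd53, Spi1 and Coro1a) were lost in 7, 10 and 3 of the 26 fits that left out 1 mouse, and that of Coro1a at p17 in 9. At p17 the values called higher reached from Coro1a, an actin-binding protein (0.33, adjusted p = 0.0382), to Spi1, the gene of PU.1 (3.03, adjusted p = 6.06e-07). The median log2FC of the list was 0.48 at p14 and 1.73 at p17, beside 0.79 and 1.84 for the 10 activated genes.

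**Figure D3:**
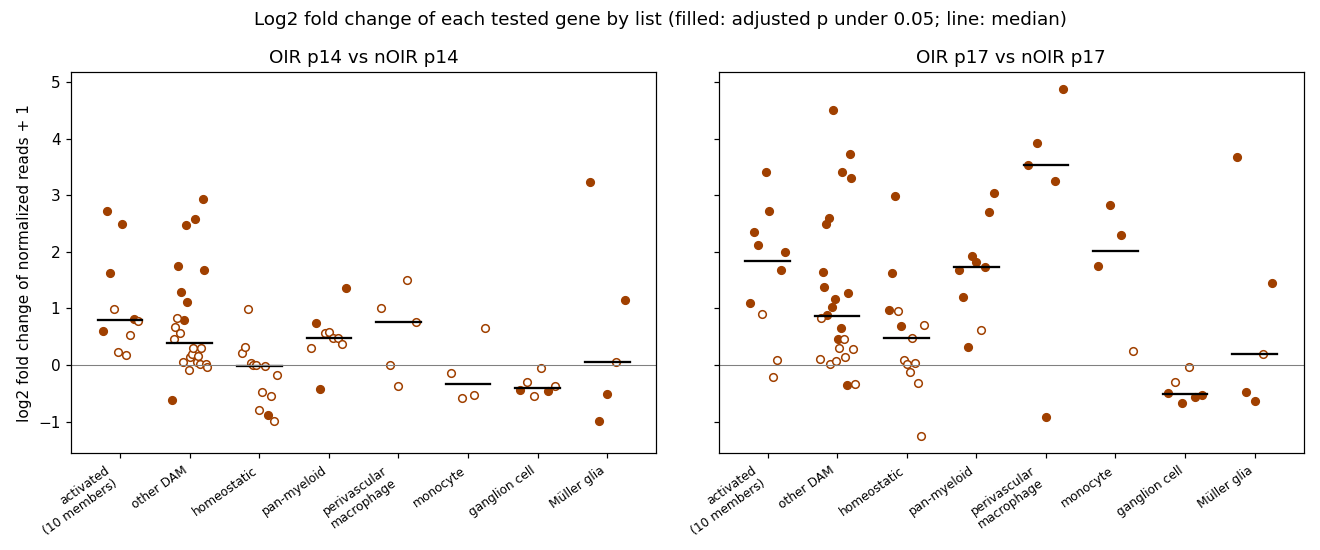
Log2FC of each tested gene (vertical axis, OIR against nOIR) by gene list (horizontal axis) at p14 and p17, filled where called, with the median of each list as a line. The 10 activated genes and the pan-myeloid genes have medians of 1.84 and 1.73 at p17, and the perivascular macrophage genes the highest of the lists shown.

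Markers of other myeloid cells were called in part, and their counts are to be read against the shares of all genes. These were 7.39% called higher and 5.12% called lower at p17, and 3.18% and 2.91% at p14. Of 5 perivascular macrophage markers, none was called at p14, and at p17 Pf4 (4.87), F13a1 (3.92), Cd163 (3.54) and Mrc1 (3.26, adjusted p = 0.0129, or 0.0514 without nOIR p17 mouse S6) were higher and Lyve1 (-0.92) was lower. Their summed level, which Lyve1 dominates, ranged from 737 to 948 normalized reads in nOIR p17 and 507 to 782 in OIR p17 mice. Of 4 tested monocyte markers, none was called at p14 and 3, among them Ccr2 and Plac8, were higher at p17, while Vcan was not called (0.25, adjusted p = 0.705). The monocyte sum ranged from 34.7 to 97.1 in controls and from 56.5 to 203 in OIR mice at p14, and from 48.9 to 109 and from 77.8 to 158 at p17. Ccr2, which marks recruited monocytes, was at 0 in all nOIR p17 mice and ranged from 0 to 20.9 normalized reads (median 2.23) in OIR p17 mice. Without OIR p17 mouse S5 it fell below the filter and was not tested, and its call held without any other mouse. Of 5 neutrophil markers, 1 was higher at p17 (S100a8, 2.03, adjusted p = 0.0138), 1 was lower at both ages (Mmp9) and the other 3 were not called. Of 5 Müller glia markers, 2 were higher (Vim and the gliosis gene Gfap, 3.68 at p17) and 2 lower (Rlbp1 and Glul) at each age. The part of these cells in the values of the 10 genes was not tested.

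Bulk samples do not show in which cells the reads of the 10 genes arose. To set these genes beside homeostatic microglia genes of the same retina, the mean log2 level of the homeostatic list was subtracted in each mouse. That mean differed between OIR and nOIR mice by -0.18 at p14 and 0.53 at p17, so the median of all genes moved to 0.20 and -0.55. Relative to this list, 6 genes were higher at p14, namely those called before and Tyrobp (0.95, adjusted p = 0.0232), compared with 3.29% of all genes. The Axl call (0.78, adjusted p = 0.0353) was lost in 6 of 11 alternatives and in 9 of the 26 fits that left out 1 mouse. The Tyrobp call was lost in 2 of 11 and in 4 of these fits. At p17 the same 7 genes as before were higher, compared with 3.69% of all genes. Among them, the Axl call (0.57, adjusted p = 0.0233) did not hold in 2 of 11 alternatives. It was also lost in 2 of the 26 fits that left out 1 mouse (adjusted p up to 0.0736). Lpl was lower at p17 (-0.75, adjusted p = 0.000604), compared with 42% of all genes.

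The pan-myeloid list gave another picture, because its mean differed by 0.49 at p14 and by 1.67 at p17. Relative to it, Clec7a (2.22) and Lgals3 (2.00) were the genes called higher at p14, compared with 1.25% of all genes. At p17 Itgax (1.73, adjusted p = 0.0295) and Lgals3 (1.05, adjusted p = 0.000724) were higher, compared with 1.09%. Axl (-0.57), Gpnmb (-0.78), Spp1 (-1.59) and Lpl (-1.89) were lower than the list at p17, compared with 86.5% of all genes. Trem2 had a difference of 0.01 ± 0.25 (SE, adjusted p = 0.959) and Tyrobp of 0.33 ± 0.23 (SE, adjusted p = 0.164). Of the 10 genes, Lgals3 was the one called higher at both ages on all 3 scales, as deposited and relative to either list.

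**Figure D4:**
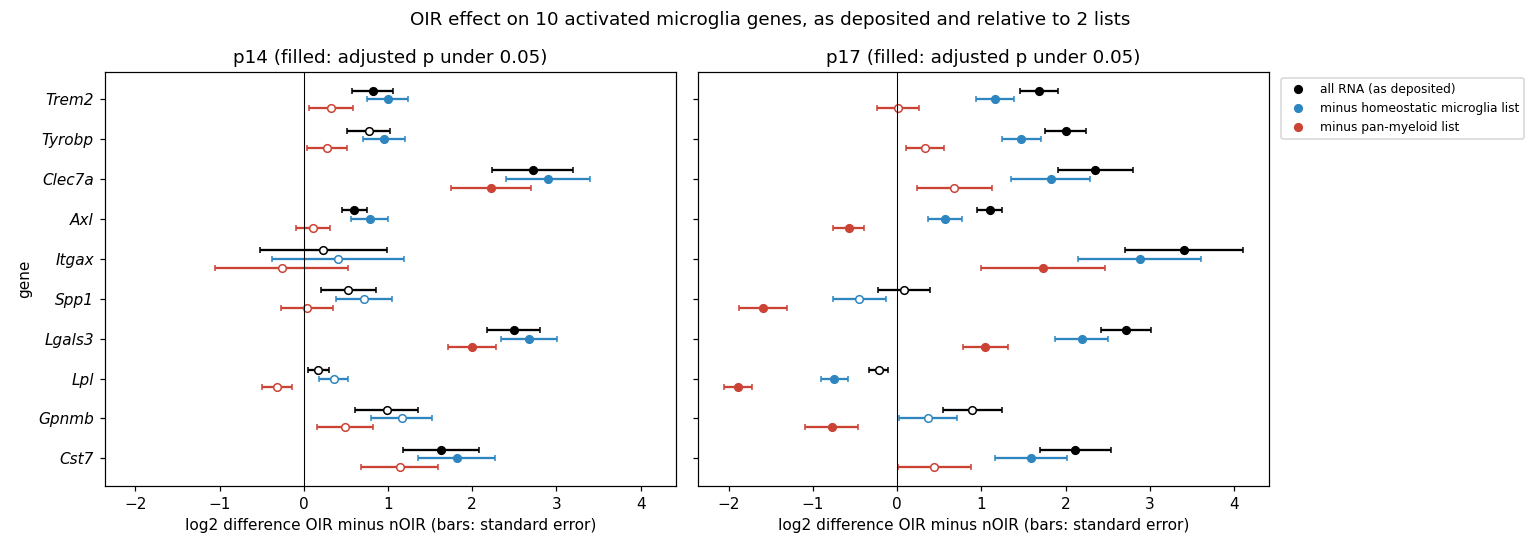
Log2 difference between OIR and nOIR mice (horizontal axes, bars show the standard error) for each gene (vertical axis) at p14 and p17, as deposited and after subtraction of the homeostatic or the pan-myeloid list mean, filled where called. At p17 Trem2 lies at 1.69 as deposited, 1.16 relative to the homeostatic and 0.01 relative to the pan-myeloid list, whereas Lgals3 stays above 1 on each scale.

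The mice of a group were not equally high in all genes. Among the OIR p14 mice, S1 was the highest in 5 genes (Tyrobp, Spp1, Lgals3, Lpl and Gpnmb), and S2 was the lowest in 5 (Clec7a, Axl, Spp1, Lpl and Cst7). Among the OIR p17 mice, S1, which had the fewest reads, was the lowest in 6 genes (Trem2, Tyrobp, Axl, Spp1, Lgals3 and Gpnmb), and S4 was the highest in 4 (Tyrobp, Clec7a, Spp1 and Lpl). The count of 7 genes called at p17 ranged from 7 to 8 when any mouse was left out.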

How the data were processed

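Retinal RNA of 27 mice was amplified from small inputs with a kit that does not mark strand, so overlapping antisense genes cannot be told apart. Per the submitters' processing notes, FastQC 0.73, STAR 2.7.8a, featureCounts 2.0.1, R 4.0.3 and DESeq2 1.34 were used. The deposited signal is normalized reads, which the authors obtained by dividing the counts of each mouse by its size factor. The table also holds group means, log2 fold changes and adjusted p-values of the authors' own comparisons, and these deposited log2 values and p-values were not used here. Dividing each value by the step of its mouse gave whole reads in 100% of cases (tolerance 0.01). PCR copies were not removed, so reads are not independent molecules. The exact interval of the Itgax read ratio covers the counting error of reads only, whereas the limma intervals rest on the spread between mice.

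A pseudocount of 1 was added, and genes that averaged 1 normalized read or more were fitted with limma 3.58.1 (eBayes with a trend, 4 groups in 1 fit, Benjamini-Hochberg adjustment) in R 4.3.3. Exact permutation tests compared means of log2 values in Python 3.11.15 with scipy 1.17.1. edgeR 4.0.16 (quasi-likelihood) and DESeq2 1.42.0 were run on the recovered reads as alternatives. Which mice shared a litter is not given in the sources used here, so the tests take mice as independent although some were littermates. The 10 genes and all lists were chosen with earlier results of these data known. The text names all 10, their partners, and in the further DAM, homeostatic and pan-myeloid lists the genes with the largest and smallest log2 fold change at p17. Markers of other cell types are given by counts and ranges, and those named, like the other named genes, were chosen after their values were seen. Promoter windows came from RefSeq (GRCm38.p6) and exon lengths from GENCODE M21 (GRCm38), whereas the counts were made on a later annotation, so coordinates are given for the promoter windows alone. Leaving out each mouse in turn also for the genes of the lists was chosen after seeing the data. The values of some single genes of the lists are not reported here.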

Additional observations from a re-analysis of the deposited data

Results flagged for a closer look

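With normally distributed values, about 1 in 20 combinations of a gene and a group would hold a mouse far from the others. This rate need not hold for unlogged reads, and Itgax was at 0 in 4 of 6 nOIR p14 mice. In the 40 combinations here, 3 held such a mouse. For Itgax these were nOIR p14 mouse S6 with 11.2 normalized reads (next highest 3.03) and OIR p17 mouse S5 with 54.5 (next highest 21.8). For Lpl it was OIR p14 mouse S1 with 2423 normalized reads (next highest 1633). The Itgax value of nOIR p17 mouse S6, 1.06 normalized reads, was not counted, since with all others at 0 any single read stands apart. The nOIR p14 mouse S4, which was left out of all comparisons, lay above the other 6 nOIR p14 mice in 2 of the 10 genes, with 679 normalized reads of Axl (highest of the others 660.1) and 13.9 of Itgax (11.2).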

How the results depend on the processing

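The 7 calls at p17 were kept under all alternatives except a mean of at least 10 normalized reads, where Itgax was not tested, and the requirement of a log2FC above 2, which left 5. At p14, 5 calls became 3 (Axl, Clec7a and Lgals3) with the compared groups only, with a replicate block for mouse numbers and with quantile normalization, and 2 (Clec7a and Lgals3) with an adjusted p under 0.01 or a log2FC above 2 required. Trem2 was also lost at p14 with mouse S4 (adjusted p = 0.0531, where Tyrobp was called instead), with all genes above 0 (0.0528) and with the Cryaa covariate (0.0533). With 1 mouse left out, the p14 count ranged from 2 to 6. Deviations of mice with the same number had correlations of -0.108 to 0.14. Mice of different numbers were not compared, so this cannot tell whether the numbers pair mice. At p17 the replicate block left 7 calls. Within OIR mice, 3 calls between the ages became 1 (Lpl) with the compared groups only, with an adjusted p under 0.01 or with log2 Cryaa, a lens gene, as a covariate, and ranged from 1 to 3 with a mouse left out. Within nOIR mice, 0 became 1 (Spp1) with the compared groups only. For the difference of effects, 0 became 2 with DESeq2 and ranged from 0 to 1 with a mouse left out. Relative to the homeostatic list at p14, 6 became 2 with an adjusted p under 0.01 or the pan-myeloid list as reference, and ranged from 3 to 7 with a mouse left out.

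Directions turned mainly in values near 0. Itgax at p14 was -0.19 with mouse S4, -0.11 with edgeR and -0.16 with DESeq2. Relative to the homeostatic list at p14 it was -0.030 with S4, and -0.26 relative to the pan-myeloid list. Between the ages of OIR mice, Clec7a was -0.064 with edgeR and -0.077 with DESeq2, Spp1 was -0.022 and -0.043, and Cst7 was -0.015 with the Cryaa covariate, which also gave Spp1 -0.0094 at p17. With the pan-myeloid list, Lpl was -0.32 at p14, and Axl was -0.57 and Gpnmb -0.78 at p17. With a mouse left out, Itgax at p14 ranged from -0.10 to 0.76, Clec7a from -0.37 to 0.38 and Spp1 from -0.069 to 0.53 between OIR ages, and Gpnmb from -0.44 to 0.19 between nOIR ages and from -0.33 to 0.29 in the difference of effects. The causes were not tested. The difference of effects was not run with the compared groups only, nor edgeR and DESeq2 on values relative to a list. Depth limits Itgax above all, with a single read in the nOIR p17 mice.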
